A study of Mus musculus with 10 samples.

Results

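Neuropeptides are short signalling proteins that neurons cut from longer precursors, store in dense-core granules and release beside a fast transmitter. In the retina they are made mainly by sparse classes of amacrine cells, the inhibitory interneurons of the inner retina, and by some ganglion cells, whose axons form the optic nerve. The group described here is 10 precursor genes of inner retinal neurons, chosen by name: Npy, Vip, Tac1, Sst, Cck, Penk, Pdyn, Crh, Gal and Adcyap1. All 10 were in the count table of 57010 genes. Their coordinates below are those of GENCODE M21 on build GRCm38 (mm10).

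RNA was sequenced from whole retinas of 10 mice aged 6 to 8 weeks, taken 14 days after injection into the vitreous, the gel that fills the eye. In 5 mice the vector was AAV2-GFP and in 5 it was AAV206-GFP, so that every mouse received a recombinant adeno-associated virus carrying green fluorescent protein and the groups differed in which vector carried it. The series' title describes a vector aimed at the retinal pigment epithelium (RPE), the layer behind the photoreceptors. Strain, sex and the promoter that drives the reporter were not given in the sources used here. Retinas without an injection were not analysed here, and every value below compares one vector with the other.

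Total counts ran from 10989843 to 12752604 per library. Levels are given as CPM, counts per 1000000 counts of the library after correction for library composition, and 3 counts corresponded to 0.232 to 0.274 CPM, a floor that covers counting error only. Markers of amacrine cells (16 of 16 genes), ganglion cells (12 of 12) and horizontal cells (5 of the 5 found in the table) were abundant enough to test in these retinas. AAV2-GFP replicate 1 stood apart by its immune RNA: 7 microglial genes summed to 234 CPM there, against 25.9 to 48.2 CPM in the other AAV2-GFP mice and 21.98 to 26.8 CPM with AAV206-GFP. Its 8 lymphocyte genes summed to 16.5 CPM, against at most 0.949 CPM in any other mouse.

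Many neuropeptide genes are textbook targets of cyclic AMP signalling through the cAMP response element, and short stretches of promoter that hold such letters are shown for some of the members described below. RefSeq promoter windows of 300 bases (250 before to 50 after a start site, build GRCm38.p6) were matched for 8 of the 10 genes, all except Crh and Penk. Windows were searched on both strands for the core letters TGACG and for the full element TGACGTCA, which contains the core in both orientations. At least 1 core was found in 6 of the 8 genes (none in Npy and Pdyn), and 20.8% of all 32851 windows of that length held one. The full element was in Sst alone among the 8 genes, and in 1.79% of all windows. The counts are of genes, some with more than 1 window, and the shares are of windows. They are not like for like, and no excess is read from them. In the stretches printed here, 5′ to 3′ on the gene's own strand, capitals mark the core or the full element, which lies 43 to 91 bases before the RefSeq start:
Cck, chr9:121495719-121495759, minus strand: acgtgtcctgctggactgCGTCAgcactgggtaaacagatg
Sst, chr16:23890867-23890910, minus strand: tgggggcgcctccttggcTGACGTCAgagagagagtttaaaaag
Vip, chr10:5639121-5639161, plus strand: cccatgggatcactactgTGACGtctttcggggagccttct
Adcyap1, chr17:93198908-93198948, plus strand: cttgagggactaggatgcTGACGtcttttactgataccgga
Tac1, chr6:7555000-7555040, plus strand: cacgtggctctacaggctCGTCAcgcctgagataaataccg
Not printed are a core of Gal, 19 bases after its RefSeq start, and a further core of Tac1, 197 bases before its start. The Adcyap1 core lies 91 bases before 1 RefSeq start and 242 bases before another. All of these are letter matches, with no measurement of binding behind them. Of the 5 genes shown, Cck alone passed the test between the vectors described next.

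The opioid precursor Penk was higher and the cholecystokinin precursor Cck lower with AAV206-GFP, while the other 6 members that could be tested did not pass. Of the 10 members, 8 had enough counts for the gene-wise test (edgeR quasi-likelihood, Benjamini-Hochberg adjustment over all 15539 tested genes, threshold 0.05), and Crh and Gal did not. Thus 2 of 8 tested members were called, 1 higher and 1 lower, against a background of 11.2% of all tested genes (5.95% higher and 5.3% lower). The same 2 were the members with an unadjusted p under 0.05 (edgeR), a level that 28% of tested genes reached. The median log2 fold change of the 8 tested members was -0.14, beside -0.0095 over all tested genes. Of the 8 members 7 had a negative value, and no share over all tested genes was set beside this count. It depended in part on AAV2-GFP replicate 3. Without that mouse Tac1 was 0.039 and Sst 0.041 on the log2 scale. In the same fit Npy (-0.15), Vip (-0.099), Cck (-0.66), Adcyap1 (-0.18) and Pdyn (-0.033) stayed negative. No common fall of the members is read from the count. In bulk tissue, fewer cells of a type and less RNA per cell cannot be told apart.

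**Figure D1:**
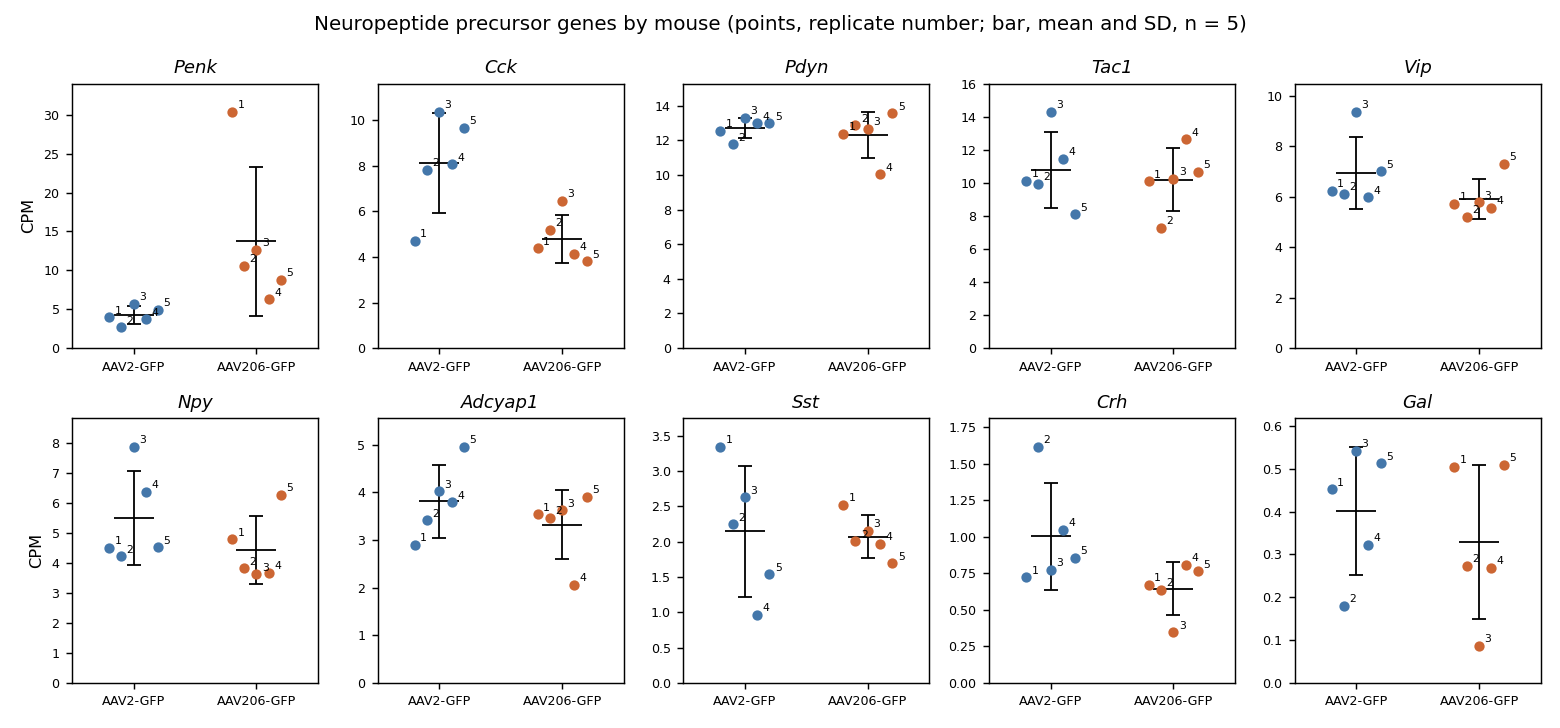
Level in CPM (vertical axes from 0) of the 10 neuropeptide precursor genes in each mouse of both groups (points with replicate numbers) with the mean and SD of 5 mice. Penk is the 1 gene in which the groups do not overlap, with AAV206-GFP replicate 1 at 30.4 CPM; AAV2-GFP replicate 3 is the highest of its group in 6 of the 8 tested genes.

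Penk (ENSMUSG00000045573, chr4:4133531-4138819, minus strand) encodes proenkephalin, the precursor of the enkephalins, which act on delta and mu opioid receptors. Its level in AAV2-GFP replicates 1 to 5 was 3.98, 2.69, 5.72, 3.71 and 4.96 CPM. In AAV206-GFP replicates 1 to 5 it was 30.4, 10.6, 12.7, 6.28 and 8.82 CPM. All AAV206-GFP mice lay above all AAV2-GFP mice, the lowest of the one close to the highest of the other. Among the 8 tested members Penk alone showed no overlap between the groups, as 9.78% of all tested genes did. Penk rose from 4.21 ± 1.17 to 13.7 ± 9.59 CPM (SD, n = 5), or 3.25-fold, at a log2 fold change of 1.70 and a standard error (SE) of 0.35 (edgeR adjusted p = 0.00593). It was 1 of 148 genes, 0.952% of those tested, that passed with an increase of at least 2-fold.

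The size, not the call, depended on AAV206-GFP replicate 1. Without that mouse the log2 fold change of Penk was 1.18, or 2.27-fold (edgeR adjusted p = 0.00764). Penk was past the threshold in all 21 alternative analyses, including all 10 that left out a library, with edgeR, DESeq2 or limma adjusted p-values up to 0.0412. A non-coding gene on the opposite strand, A830012C17Rik, overlaps Penk and had 2 counts in all 10 libraries together.

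Red cell RNA, like Penk, was higher with AAV206-GFP. The 5 erythrocyte genes listed (Hba-a1, Hba-a2, Hbb-bs, Hbb-bt and Alas2) summed to 67.8 to 85.8 CPM with AAV2-GFP and to 256, 125, 319, 101 and 141 CPM in AAV206-GFP replicates 1 to 5. All but Hbb-bt passed as higher, 4 of 5 genes, beside 5.95% of all tested genes called as higher. Hba-a1 did not pass with robust dispersions (edgeR adjusted p = 0.0535). The near-identical globin copies share reads, so the split of counts among them is uncertain. The mice with the most red cell RNA, AAV206-GFP replicates 1 and 3, also had the most Penk, and replicate 4 had the least of both within its group. The match by mouse was partial. AAV206-GFP replicate 3 had more red cell RNA than replicate 1 but less Penk (12.7 against 30.4 CPM), and replicates 2 and 5 stood in opposite order. With AAV2-GFP, replicate 3 had the most of both, but replicate 1 had the least red cell RNA and replicate 2 the least Penk. AAV206-GFP replicate 1 also had the most lens RNA of its group, 10.9 CPM over 7 lens genes against at most 2.46 CPM in the other AAV206-GFP mice and 10.4 to 29.7 CPM with AAV2-GFP. The part of either tissue in the Penk difference was not tested.

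Cck (ENSMUSG00000032532, chr9:121489824-121495694, minus strand) encodes cholecystokinin, a peptide shared by gut and brain. AAV2-GFP replicates 1 to 5 stood at 4.70, 7.82, 10.4, 8.07 and 9.65 CPM, and AAV206-GFP replicates 1 to 5 at 4.37, 5.20, 6.47, 4.13 and 3.82 CPM. The groups overlapped through AAV2-GFP replicate 1, the mouse with high immune RNA, which lay below AAV206-GFP replicates 2 and 3, while the other 4 AAV2-GFP mice lay above every AAV206-GFP mouse. Cck fell from 8.12 ± 2.19 to 4.797 ± 1.07 CPM (SD, n = 5), or 1.69-fold (log2 fold change -0.76, SE 0.21, edgeR adjusted p = 0.0315).

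The call for Cck depended on which mice were included. When each library was removed in turn it did not pass in 7 of 10 cases (without AAV2-GFP replicate 3, 4 or 5, or AAV206-GFP replicate 1, 2, 4 or 5), with edgeR adjusted p-values from 0.0577 to 0.0807, whereas without AAV2-GFP replicate 1 the log2 fold change was -0.90 (edgeR adjusted p = 0.00514). Cck passed in 14 of the 21 alternatives, including all 11 that did not leave out a single library. The sign was negative in all 21 alternatives, with log2 fold changes from -0.96 to -0.66.

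**Figure D2:**
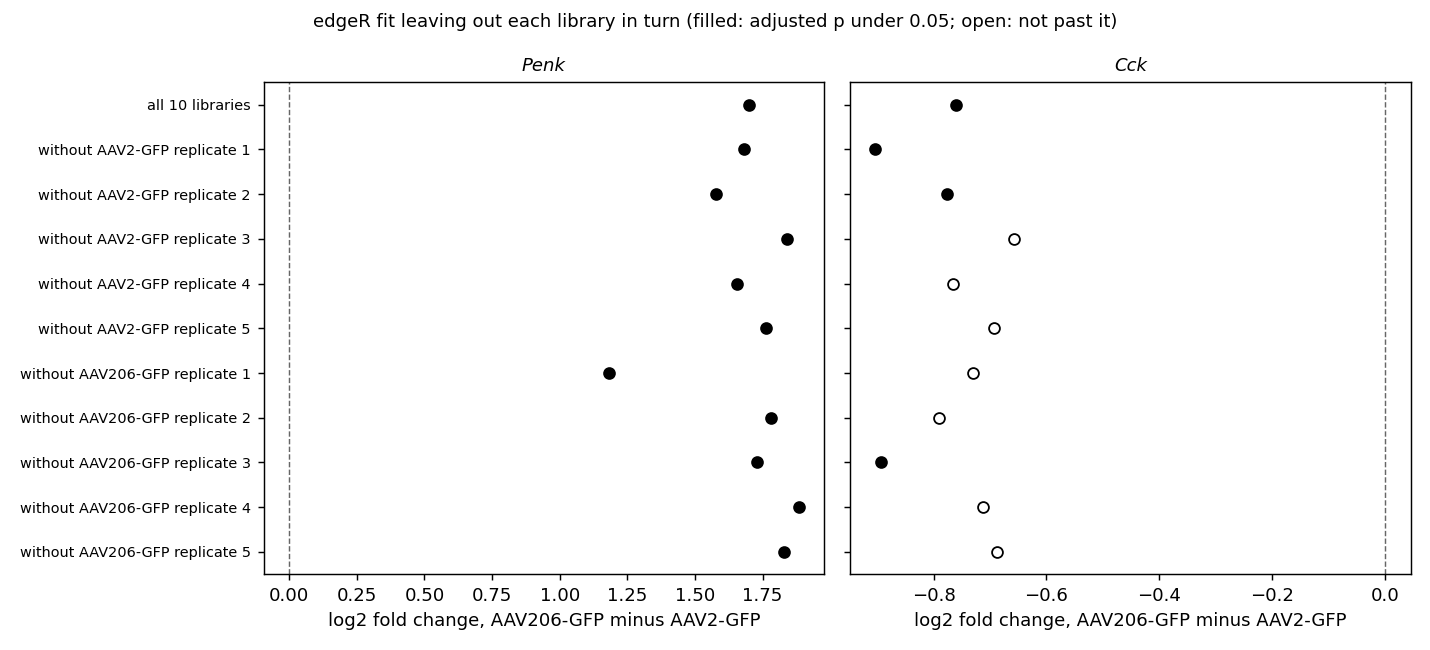
Log2 fold change (horizontal axes, AAV206-GFP minus AAV2-GFP) of Penk and Cck with all 10 libraries and with each library left out in turn, filled where the edgeR adjusted p was under 0.05. Penk stays filled throughout and drops to 1.18 without AAV206-GFP replicate 1; Cck is open in 7 of 10 such fits.

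The other opioid precursor did not pass. Pdyn (ENSMUSG00000027400, chr2:129686565-129699844, minus strand) encodes prodynorphin, whose peptides act on kappa opioid receptors, and it was the member with the most counts. It stood at 12.6, 11.8, 13.3, 12.99 and 12.99 CPM in AAV2-GFP replicates 1 to 5 and at 12.4, 12.9, 12.7, 10.05 and 13.6 CPM in AAV206-GFP replicates 1 to 5. The groups overlapped throughout, and the log2 fold change was -0.05 with a 95% interval of -0.28 to 0.19 (edgeR adjusted p = 0.811). The 95% interval of Penk was 0.96 to 2.44, and the difference between the genes was not tested.

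Tac1 (ENSMUSG00000061762, chr6:7554879-7565834, plus strand), the precursor of substance P and neurokinin A, averaged 10.8 ± 2.29 CPM under AAV2-GFP and 10.2 ± 1.92 CPM under AAV206-GFP (SD, n = 5). Its mice ranged from 8.12 to 14.3 CPM and from 7.30 to 12.6 CPM, and the log2 fold change was -0.08 with a 95% interval of -0.44 to 0.27 (edgeR adjusted p = 0.778). Sst (ENSMUSG00000004366, chr16:23889573-23890958, minus strand), which encodes the inhibitory peptide somatostatin, had 2.15 ± 0.927 and 2.07 ± 0.303 CPM (SD, n = 5). Its AAV2-GFP mice spread from 0.968 to 3.35 CPM around AAV206-GFP mice at 1.70 to 2.52 CPM. The log2 fold change of Sst was -0.05 with a wide 95% interval of -0.69 to 0.60 (edgeR adjusted p = 0.942). At 12 to 37 counts per library, a change within that interval in either direction remained possible.

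Npy (ENSMUSG00000029819, chr6:49822710-49829507, plus strand) encodes neuropeptide Y, a peptide of amacrine cells. It stood at 4.52, 4.22, 7.89, 6.37 and 4.53 CPM in AAV2-GFP replicates 1 to 5 and at 4.796, 3.83, 3.62, 3.68 and 6.27 CPM in AAV206-GFP replicates 1 to 5. The ranges overlapped, with AAV2-GFP replicate 3 the highest mouse, and the log2 fold change of -0.31 had a 95% interval of -0.79 to 0.16 (edgeR adjusted p = 0.378).

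Vip and Adcyap1 encode related peptides, vasoactive intestinal peptide and PACAP, which share receptors. PACAP is known from the melanopsin ganglion cells that carry light signals to the brain's clock. Vip (ENSMUSG00000019772, chr10:5639218-5647617, plus strand) was at 6.94 ± 1.41 CPM with AAV2-GFP (5.97 to 9.36) and 5.91 ± 0.805 CPM with AAV206-GFP (5.20 to 7.29; SD, n = 5). Its log2 fold change was -0.23 with a 95% interval of -0.59 to 0.13 (edgeR adjusted p = 0.390). Adcyap1 (ENSMUSG00000024256, chr17:93199017-93206537, plus strand) was at 3.81 ± 0.767 CPM (2.89 to 4.96) and 3.32 ± 0.720 CPM (2.06 to 3.90; SD, n = 5), and its log2 fold change was -0.20 with a 95% interval of -0.67 to 0.27 (edgeR adjusted p = 0.588). In neither gene did the mice separate by vector.

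Crh and Gal were too scarce for the test. Crh (ENSMUSG00000049796, chr3:19693401-19695396, minus strand), the stress peptide corticotropin-releasing hormone, had 4 to 18 counts per library, at 0.723, 1.62, 0.773, 1.05 and 0.854 CPM in AAV2-GFP replicates 1 to 5 and 0.673, 0.638, 0.345, 0.807 and 0.763 CPM in AAV206-GFP replicates 1 to 5. AAV2-GFP replicate 2 was the highest and AAV206-GFP replicate 3 the lowest, and the edgeR fit without a filter gave -0.63 on the log2 scale (SE 0.47, adjusted p = 0.465). Gal (ENSMUSG00000024907, chr19:3409915-3414544, minus strand), the precursor of galanin, had 1 to 7 counts per library, 43 in all, or 0.0862 to 0.541 CPM, which straddles the floor. No difference between the groups could be read at that depth (edgeR without a filter, log2 fold change -0.29, SE 0.67, adjusted p = 0.834).

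**Figure D3:**
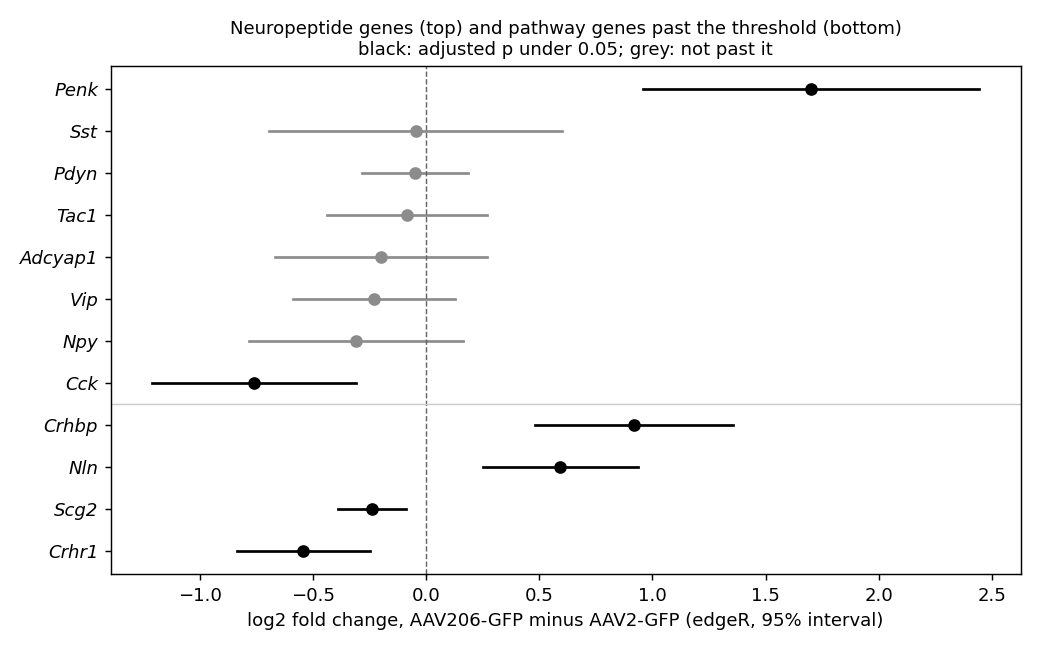
Log2 fold change (horizontal axis, AAV206-GFP minus AAV2-GFP) with its 95% interval for the 8 tested neuropeptide genes and for the 4 pathway genes past the threshold, black where the edgeR adjusted p was under 0.05. Penk and Cck lie on opposite sides of 0, and the intervals of the other 6 neuropeptide genes contain 0.

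To compare levels between genes, counts were set against exon length, as CPM per kilobase of annotated exon. The exons of all annotated transcripts of a gene were merged for this length. It can exceed the length of any single transcript, so the order below depends in part on the annotation. Npy, with 566 bases of exon, led at 8.79 ± 2.50 CPM per kilobase (SD over 10 mice), followed by Penk at 5.50 ± 5.00, Cck at 4.95 ± 1.83, Pdyn at 4.33 ± 0.346 and Tac1 at 3.09 ± 0.594 CPM per kilobase. Sst at 2.92 ± 0.904, Vip at 1.89 ± 0.356, Adcyap1 at 0.944 ± 0.198, Crh at 0.625 ± 0.250 and Gal at 0.463 ± 0.204 CPM per kilobase completed the order. The ranges over the 10 mice overlapped for every pair of neighbours in this order except Vip and Adcyap1, where Vip was higher per kilobase in 10 of 10 mice. The order was not the same in both groups. Cck averaged 6.22 ± 1.68 CPM per kilobase with AAV2-GFP, above Pdyn at 4.41 ± 0.206, and 3.68 ± 0.817 with AAV206-GFP, below Pdyn at 4.26 ± 0.463 (SD, n = 5). For Penk, per kilobase it averaged 2.58 ± 0.714 CPM with AAV2-GFP, below Npy, Cck, Pdyn, Tac1 and Sst, and 8.41 ± 5.87 CPM with AAV206-GFP (SD, n = 5), above Npy at 7.84 ± 2.00. The high AAV206-GFP mean of Penk leaned on replicate 1, at 18.6 CPM per kilobase the highest of the 10 mice. By mouse, Npy was higher per kilobase than Penk in 8 of 10. The median of all tested genes with an annotated length was 5.36 CPM per kilobase, so 8 of the 10 precursors lay below it.

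**Figure D4:**
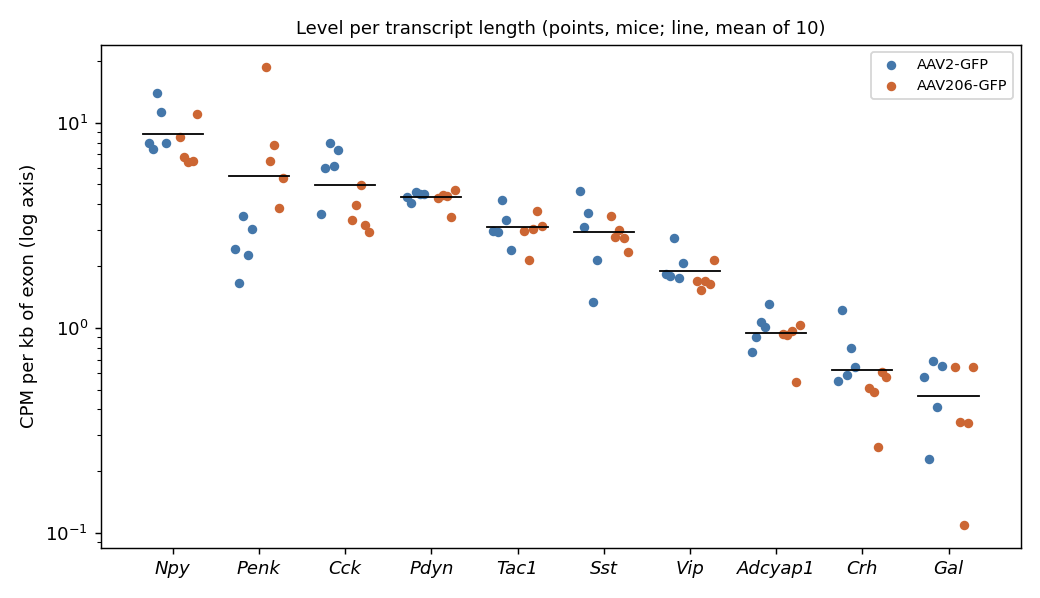
Level of each neuropeptide gene per kilobase of exon (vertical log axis, CPM per kilobase) in each mouse, ordered by the mean of 10 mice (line). Npy is highest at 8.79 and Gal lowest at 0.463 CPM per kilobase; the AAV2-GFP and AAV206-GFP points of Penk separate.

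AAV2-GFP replicate 3 had high levels of most members. It was above its group mean in all 8 tested members and the highest of its group in 6 of them (Npy, Vip, Tac1, Cck, Penk and Pdyn), and its median deviation on the log2(CPM + 1) scale was 0.38. That library also had the largest total count, 12752604. In 1358 tested protein-coding genes with at most 1.92 kilobases of exon, the shortest of their kind, its median deviation was 0.22, and over all tested genes it was 0.0091. Npy, Sst, Cck and Penk fall within that length, whereas Pdyn, Tac1, Vip and Adcyap1 are longer (2.89 to 3.78 kilobases of exon). The part of depth and of exon length in these levels was not tested. With AAV206-GFP, replicate 4 was above its group mean in 1 of the 8 members, with a median deviation of -0.18, and its median deviation over the shortest genes was -0.13.

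Genes with a like pattern were sought for the 3 members with the most CPM, by Pearson correlation of deviations from the group means over 10 libraries, among all tested protein-coding genes. These are the highest of a very large number of values that rest on the same 10 libraries, and are given as a description. For Penk they were Fgfr2 (r = 0.97, Spearman rho = 0.92), a fibroblast growth factor receptor whose counts carried decimals in 5 libraries, Arrdc2 (r = 0.93, rho = 0.84) and Mphosph6 (r = 0.90, rho = 0.77). Of these Arrdc2, an arrestin-domain gene, also rose with AAV206-GFP, by 0.98 on the log2 scale (edgeR adjusted p = 0.000383). For Pdyn they were Cog8 (r = 0.99, rho = 0.81), whose counts carried decimals in all 10 libraries, Slc2a1 (r = 0.97, rho = 0.92), which encodes the glucose transporter GLUT1, and Gtf2f2 (r = 0.96, rho = 0.95). For Tac1 they were Rab8a, Shb and Rasa3 (each r = 0.94, rho between 0.87 and 0.90).

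Receptors carry the message of the released peptides. Of the 26 receptor genes of the 10 peptides listed, 13 were abundant enough to test, 1 passed as lower (7.69%, beside 11.2% of all tested genes called) and none as higher, and the median log2 fold change of the 13 was -0.11. The most abundant were Vipr2, which binds both VIP and PACAP, at 46.3 ± 3.32 and 51.95 ± 6.43 CPM, Tacr3, the neurokinin B receptor, at 22.8 ± 3.12 and 21.2 ± 4.05 CPM, and Adcyap1r1, the PACAP receptor, at 9.83 ± 0.920 and 11.7 ± 1.43 CPM (AAV2-GFP and AAV206-GFP; SD, n = 5). None of these 3 passed: on the log2 scale Vipr2 had 0.17, Tacr3 -0.11 and Adcyap1r1 0.26 (edgeR adjusted p = 0.217, 0.633 and 0.190). The opioid receptors Oprd1, Oprm1 and Oprk1 and the CCK receptor Cckar were too scarce to test. The other CCK receptor, Cckbr, had a log2 fold change of 0.21 (edgeR adjusted p = 0.295).

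In the corticotropin-releasing hormone system the receptor was lower and the binding protein higher with AAV206-GFP. Crhr1 (ENSMUSG00000018634, chr11:104132855-104175523, plus strand), the main receptor of the peptide, stood at 9.13, 10.7, 9.90, 12.6 and 9.83 CPM in AAV2-GFP replicates 1 to 5 and at 6.65, 7.48, 7.503, 5.92 and 8.22 CPM in AAV206-GFP replicates 1 to 5. The groups did not overlap, and Crhr1 fell 1.46-fold (log2 fold change -0.54, SE 0.14, edgeR adjusted p = 0.0212). It did not pass without AAV2-GFP replicate 4 (edgeR adjusted p = 0.0701), without AAV206-GFP replicate 4 (0.0546) or without AAV2-GFP replicates 1 and 4 together (0.0668).

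Crhbp (ENSMUSG00000021680, chr13:95431371-95444924, minus strand) encodes a secreted protein that binds the peptide and keeps it from its receptors. It stood at 3.80, 3.86, 4.56, 3.95 and 3.16 CPM in AAV2-GFP replicates 1 to 5 and at 10.7, 5.84, 8.54, 5.83 and 5.68 CPM in AAV206-GFP replicates 1 to 5. The groups did not overlap and, as for Penk, AAV206-GFP replicates 1 and 3 were the highest. Crhbp rose 1.89-fold (log2 fold change 0.92, SE 0.21, edgeR adjusted p = 0.0102), and it passed in all 21 alternatives, with 0.74 without AAV206-GFP replicate 1 (edgeR adjusted p = 0.0278). Crhr2, the second receptor, had 0.01 on the log2 scale, with a 95% interval of -0.66 to 0.68 (edgeR adjusted p = 0.985), and Crh itself had too few counts for the filtered test.

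**Figure D5:**
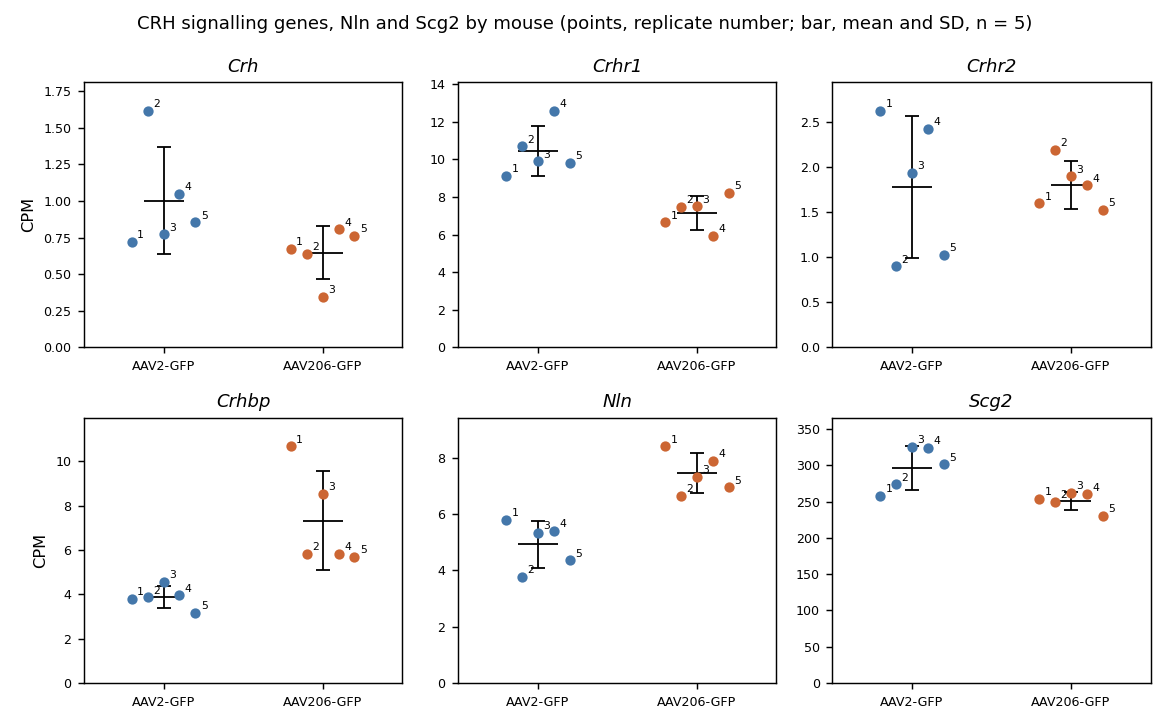
Level in CPM (vertical axes from 0) of Crh, Crhr1, Crhr2, Crhbp, Nln and Scg2 in each mouse (points with replicate numbers) with the mean and SD of 5 mice. The groups do not overlap in Crhr1, Crhbp and Nln, and they overlap in the other 3 genes.

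Released peptides are cleared by peptidases, listed here with Crhbp. Of the 10 genes of this list 9 were tested, and their median log2 fold change was 0.12. Of the 9, 2 passed as higher and none as lower, beside 5.95% of all tested genes called as higher and 5.3% as lower. At an unadjusted p under 0.05 (edgeR) there were 5 of the 9, not all in the same direction, beside 28% of all tested genes. The second called gene, Nln (ENSMUSG00000021710, chr13:104023057-104109614, minus strand), encodes neurolysin, a peptidase that cleaves neurotensin and dynorphins. Nln rose from 4.93 ± 0.835 to 7.45 ± 0.709 CPM (SD, n = 5) with no overlap between the groups (log2 fold change 0.59, SE 0.16, edgeR adjusted p = 0.0277). In 5 of the 10 fits without a library it did not pass (without AAV2-GFP replicate 2 or 5, or AAV206-GFP replicate 1, 3 or 4), with edgeR adjusted p-values from 0.0507 to 0.0607, nor without a filter on low counts (0.0519). The 3 most abundant genes of the list, Ece1, Prep and Ece2, had 0.12, 0.22 and -0.03 on the log2 scale and did not pass (edgeR adjusted p = 0.301, 0.0598 and 0.881). Prep passed in 1 of 21 alternatives, without AAV2-GFP replicate 2 (edgeR adjusted p = 0.0303).

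The enzymes that mature peptide precursors did not differ beyond the threshold. Of 9 processing genes, all tested, none passed in edgeR or DESeq2, 2 had an unadjusted p under 0.05 (Pcsk1n and Furin), and their median log2 fold change was 0.04. Cpe, the carboxypeptidase that trims peptide ends, was the most abundant at 1313 ± 45.5 and 1275 ± 81.3 CPM (SD, n = 5; log2 fold change -0.04, edgeR adjusted p = 0.650). The convertase inhibitor Pcsk1n had -0.31 (edgeR adjusted p = 0.113, and 0.0365 without AAV2-GFP replicate 1), and the convertase chaperone Scg5 had 0.10 (edgeR adjusted p = 0.412).

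Of 10 genes of dense-core granules, all tested, 1 passed as lower (10% of the list, beside 11.2% of all tested genes called) and none as higher, with a median log2 fold change of -0.07. Scg2 (ENSMUSG00000050711, chr1:79434669-79440120, minus strand), which encodes the granule protein secretogranin II, stood at 258, 274, 325, 324 and 301 CPM in AAV2-GFP replicates 1 to 5 and at 254, 249.8, 262, 260 and 231 CPM in AAV206-GFP replicates 1 to 5. The groups overlapped only through AAV2-GFP replicate 1, which lay below AAV206-GFP replicates 3 and 4. Scg2 fell 1.18-fold (log2 fold change -0.24, SE 0.07, edgeR adjusted p = 0.0403). Leaving out 1 library at a time, it passed in 2 of 10 cases (without AAV2-GFP replicate 1 or 2), and in the other 8 the edgeR adjusted p-values were 0.0601 to 0.110. Cadps and Chgb, the other most abundant genes, had -0.03 and -0.13 (edgeR adjusted p = 0.817 and 0.191).

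Markers of the cells that make the peptides gave the setting of these values. None of 16 amacrine genes passed in edgeR, where 1 (Gad2) had an unadjusted p under 0.05, and 1 passed in DESeq2. Their median log2 fold change was 0.0018, and they summed to 1774 to 2031 CPM with AAV2-GFP and 1891 to 2005 CPM with AAV206-GFP. Of 12 ganglion cell genes 1 passed in edgeR (8.33%, beside 11.2% of all tested genes) and 2 in DESeq2. The edgeR call was the transcription factor Pou4f1, lower with a log2 fold change of -0.37 (edgeR adjusted p = 0.00623). The 12 ganglion cell genes had a median log2 fold change of -0.12. They summed to 992 to 1170 CPM with AAV2-GFP and 958 to 1069 CPM with AAV206-GFP. None of 5 horizontal cell genes passed in edgeR or DESeq2 (0 at an unadjusted p under 0.05). None of 6 Müller glia genes passed in edgeR, where 3 had an unadjusted p under 0.05, and 2 passed in DESeq2. All 6 had a negative log2 fold change, with a median of -0.19, beside -0.0095 over all tested genes. In edgeR 1 of 6 tested microglial genes (beside the same 11.2%), C1qa, passed as lower (log2 fold change -2.22, edgeR adjusted p = 0.0326). All 6 were negative, with a median of -1.17. At an unadjusted p under 0.05 (edgeR) there were 5 of the 6, beside 28% of all tested genes. AAV2-GFP replicate 1 is the mouse with high microglial RNA. Without AAV2-GFP replicate 1 the value for C1qa was -0.95 (edgeR adjusted p = 0.0683), and it did not pass either without AAV206-GFP replicate 1, 2, 4 or 5 (edgeR adjusted p up to 0.0815). Nor did C1qa pass without AAV2-GFP replicates 1 and 4 together (edgeR adjusted p = 0.124), with robust dispersions (edgeR adjusted p = 0.137) or in limma-voom (adjusted p = 0.171). In the RPE and ciliary list 1 of 4 tested genes passed, beside 11.2% of all tested genes: Rgr, lower with a log2 fold change of -0.79 (edgeR adjusted p = 0.0328), with Best1 and Tyr too scarce to test. Rgr did not pass without AAV2-GFP replicate 3, 4 or 5 or AAV206-GFP replicate 1, 2, 3 or 5, with edgeR adjusted p-values up to 0.0864, nor in limma-voom (adjusted p = 0.0543). Both tested lens genes, Cryaa and Crybb2, passed as lower, beside 5.3% of all tested genes called as lower. Their log2 fold changes were -2.50 and -2.67 (edgeR adjusted p = 0.0288 and 0.0183). Without AAV206-GFP replicate 1 they stood at -4.62 and -4.65. Cryaa did not pass without AAV2-GFP replicate 5 or AAV206-GFP replicate 2, 3, 4 or 5, and Crybb2 did not pass without AAV2-GFP replicate 5 or AAV206-GFP replicate 3 (edgeR adjusted p up to 0.0765 and 0.0519). With robust dispersions neither Cryaa nor Crybb2 passed (edgeR adjusted p = 0.124 and 0.0720), and in DESeq2 Cryaa did not (adjusted p = 0.0721). The part of these cells in the differences of Penk and Cck was not tested.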

How the data were processed

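The deposited values are estimated counts per Ensembl gene for 10 libraries, not scaled between libraries. STAR 2.7.10b, RSEM 1.3.1 and build mm10 are named in the submitters' processing notes. The annotation and strand setting are not given in the sources used here, and per the labels' protocols the kit was NEBNext Ultra RNA with paired reads of 150 bases. Names, exon lengths and coordinates came from GENCODE M21 (GRCm38), which named 98.4% of the tested genes. Decimals occurred in 5.95% of values and in none of the 10 members.

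Values were rounded to whole counts, so the planned count test was kept. Genes were kept by edgeR 4.0.16 filterByExpr (minimum count 10; 15539 of 28442 genes), scaled by TMM and tested by quasi-likelihood F test in R 4.3.3 on 5 against 5 libraries without covariates. Standard errors are the absolute log2 fold change over the square root of F. Alternatives (scaling, filter, DESeq2 1.42.0, limma 3.58.1 voom, robust dispersions, replicate block, rounding down, libraries left out) numbered 21. The procedure was tested on simulated data.

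The members, lists and naming rule were chosen with earlier results of these data known; the length comparison and promoter search were added after levels were seen. Named were all members and, per pathway list, called genes and the 3 with the highest CPM; others were chosen after their values were seen (Pdyn's and Cck's receptors, Crhr2, Gad2, Furin, Vgf, Edn2, Pomc, Hbb-bt, Best1, Tyr). The labels name 5 mice a group and 1 library each, with no batch. The p-values set the difference between the vectors against the spread between these libraries.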

Additional observations from a re-analysis of the deposited data

Results flagged for a closer look

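For each gene named in the text and each group of 5 mice, the gap between the extreme mouse and its nearest neighbour was set against the spread of all 5 (Dixon's ratio, critical value 0.71, which chance passes in about 1 of 20 groups). Over 60 genes (37 named by the rule, 14 outside it and 9 with a like pattern) this made 120 group results. Of 120 independent results 6 would be reached by chance, and 14 were reached here. The genes outside the rule were chosen after their values were seen, and those with a like pattern for following a member. All results also rest on the same 10 libraries, so no excess over chance can be read from these numbers. Penk in AAV206-GFP replicate 1 was 30.4 CPM, and the other 4 mice given that vector ranged from 6.28 to 12.7 CPM (ratio 0.734). Vip in AAV206-GFP replicate 5 was 7.29 CPM against 5.20 to 5.78 CPM (ratio 0.723), and Adcyap1 in AAV206-GFP replicate 4 was 2.06 CPM against 3.47 to 3.90 CPM (ratio 0.764).

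Tacr3 in AAV206-GFP replicate 5 was 14.2 CPM against 21.6 to 24.5 CPM (ratio 0.720), and Scg5 in AAV206-GFP replicate 4 was 101 CPM against 118 to 121 CPM (ratio 0.822). C1qa in AAV2-GFP replicate 1 was 48.6 CPM against 3.42 to 10.7 CPM (ratio 0.840). The lens genes Cryaa and Crybb2 in AAV206-GFP replicate 1 were 6.31 CPM against 0.0862 to 0.807 CPM (ratio 0.884) and 2.52 CPM against at most 0.339 CPM (ratio 0.866).

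Arrdc2 in AAV206-GFP replicate 1 was 29.4 CPM against 17.5 to 19.0 CPM (ratio 0.874), and Vgf in AAV206-GFP replicate 5 was 58.6 CPM against 33.8 to 40.6 CPM (ratio 0.725). Edn2 in AAV2-GFP replicate 1 was 14.4 CPM against 0.309 to 2.42 CPM (ratio 0.850), and Pomc in AAV2-GFP replicate 3 was 5.95 CPM against 3.05 to 3.67 CPM (ratio 0.786). The receptor genes Cckar and Oprd1, near or under the floor of 3 counts, reached 0.172 CPM in AAV206-GFP replicate 3 (ratio 1) and 0.456 CPM in AAV206-GFP replicate 2 (ratio 0.816), against 0 and at most 0.0841 CPM in the other mice.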

How the results depend on the processing

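Penk stayed called as higher in all 21 alternatives. The number of members called as lower, 1, was 0 to 1 without each library in turn. Other counts that moved over 1.5 times were, over all genes, 1747 against 1085 with the replicate number as a block, 985 without AAV2-GFP replicates 1 and 4, and 991 to 1912 without 1 library. The block and the removal of AAV2-GFP replicates 1 and 4 each took the receptor genes and the granule genes called from 1 to 0, and that removal took other peptide genes from 0 to 2. Without a filter 1 clearing gene passed in place of 2. Without 1 library the called genes numbered 0 to 1 for receptors, 0 to 1 for processing, 0 to 2 for granules, 1 to 2 for clearing and 0 to 3 for other peptides. The cause of these moves was not tested.

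The labels do not say that the replicate numbers pair the mice. Correlations of same-numbered deviations ran from -0.05 to 0.04, and 0 of 5 AAV2-GFP libraries correlated best with their own number. Such correlations can miss a weak shared factor, so they do not settle whether the mice were paired. On the log2 scale the fit with the replicate block gave Penk 1.53 (edgeR adjusted p = 0.00846), Cck -0.74 (0.0417) and Crhr1 -0.54 (0.0580). Crhr1, Scg2 (edgeR adjusted p = 0.0664) and Rgr (0.0647) were not past the threshold with the block. Signs turned in genes near 0: Sst was 0.072 with limma-voom, 0.020 with the block and -0.23 to 0.17 without 1 library; without 1 library Tac1 ran from -0.17 to 0.039, Pdyn from -0.084 to 0.016, Tacr3 from -0.17 to 0.0067, Cadps from -0.074 to 0.028, Ece2 from -0.080 to 0.019 and Crhr2 from -0.15 to 0.19. Over all 21 alternatives Crhr2 ran from -0.15 to 0.46 and passed in 0. Edn2 was 0.89 with limma-voom, 0.61 with the block, 1.57 without AAV2-GFP replicates 1 and 4, and -0.37 to 1.301 without 1 library. Depth limits Crh, Gal and Sst most, at 1 to 37 counts per library.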

Other observations

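Other secreted peptide genes that neurons or glia can make were listed beside the 10 members. Of 26 such genes 8 were abundant enough to test, and none passed (edgeR or DESeq2 adjusted p under 0.05), with a median log2 fold change of -0.03. At an unadjusted p under 0.05 there were 3 in edgeR: Cartpt and Pomc were lower and Nucb2 higher. Cartpt, which encodes the CART peptide and marks direction-selective ganglion cells, was the most abundant, at 49.8 ± 9.82 and 40.9 ± 1.10 CPM (SD, n = 5; log2 fold change -0.29, edgeR adjusted p = 0.0866). Igf1 and Nucb2, next in level, had 0.13 and 0.32 (edgeR adjusted p = 0.382 and 0.108).

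Without AAV2-GFP replicate 1, the mouse with high immune RNA, 3 of these genes passed: on the log2 scale Cartpt stood at -0.35 (edgeR adjusted p = 0.0284), Nucb2 at 0.41 (0.0333) and Edn2 at 1.301 (0.0459). Edn2, which encodes endothelin 2, a peptide known to rise in stressed photoreceptors, stood at 14.4 CPM in that mouse, 0.309 to 2.42 CPM in the other AAV2-GFP mice and 2.51 to 5.84 CPM with AAV206-GFP, and its log2 fold change with all 10 libraries was -0.06 (edgeR adjusted p = 0.961). In the same fit the granule gene Vgf was lower, at -0.52 (edgeR adjusted p = 0.0182), and it also passed without AAV206-GFP replicate 5, at -0.55 (edgeR adjusted p = 0.0252). Edn2 and Vgf were chosen after their values were seen.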
